A study of Homo sapiens with 4 samples.

Results

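DEAD and DEAH box RNA helicases were followed at gene level in K562-U2AF1 S34F cells given DMSO or the compound SF1-8. Members were the protein-coding genes with a DDX or DHX symbol and a number in the deposited table, and the entry with the highest mean count stood for each symbol. The rule found 55 symbols, 39 DDX and 16 DHX, in 54 of the 64873 entries, because DDX19A and DDX19B share 1 entry. K562 is an established human leukemia line, labelled as erythroleukemia, and all cells carried an overexpressed U2AF1 with the S34F mutation. SF1-8 was reported as an inhibitor of the U2AF homology motif of U2AF1, the part of this splicing factor that holds its partner U2AF2. Total RNA depleted of ribosomal RNA was sequenced from 2 control libraries given DMSO and 2 libraries given SF1-8 at 30 µM, with 48 h of treatment. K562 cells with wild-type U2AF1 were not analysed here, and whether the cells came from 1 clone was not given in the sources used here.

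DEAD and DEAH box proteins use ATP to open RNA duplexes or to strip proteins from RNA. They act at almost every step of an RNA's life, and in the spliceosome a succession of them drives one rearrangement after another, from the pairing of U2 snRNA with the branch point to the release of the finished mRNA. The family is named after motif II (Walker B) of the ATPase core, which reads Asp-Glu-Ala-Asp in DEAD box proteins and Asp-Glu-Ala-His in DEAH box proteins.

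The coding sequence of motif II is shown for 7 members to show how the name applies to the genes measured here. Capitals mark the 4 codons of motif II, with 12 bases on either side, read on the coding strand from GENCODE 29 transcripts on GRCh38.
DDX23: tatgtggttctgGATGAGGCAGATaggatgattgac
DHX15: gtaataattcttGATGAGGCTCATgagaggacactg
DDX20: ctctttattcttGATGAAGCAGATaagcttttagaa
DDX39B: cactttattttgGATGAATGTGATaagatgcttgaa
DDX39A: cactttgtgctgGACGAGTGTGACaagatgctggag
DDX21: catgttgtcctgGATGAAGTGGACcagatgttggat
DHX9: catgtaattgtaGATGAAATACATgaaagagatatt
DDX23 and DDX20 hold the DEAD codons and DHX15 the DEAH codons. DDX39A and DDX39B have a cysteine codon in the third place, DDX21 a valine codon, and DHX9 an isoleucine codon before histidine. The motif lies in exon 13 of DDX23 (chr12:48833424-48833435, minus strand), exon 4 of DHX15 (chr4:24556323-24556334, minus strand) and exon 4 of DDX20 (chr1:111760539-111760550, plus strand). It lies in exon 5 of both DDX39B (chr6:31536519-31536530, minus strand) and DDX39A (chr19:14411008-14411019, minus strand), in exon 6 of DDX21 (chr10:68967128-68967139, plus strand) and in exon 14 of DHX9 (chr1:182867017-182867028, plus strand). Of the 55 symbols, 30 had the exact DEAD codons, all of them DDX genes. The exact DEAH codons were found in 9, of which 8 were DHX genes and the other was DDX11. A further 15 had another residue in the third place, and no match was found in DHX32.

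The counts of a library summed to between 45522905 and 67554610, with DMSO 1 the shallowest. DMSO 1 also stood apart in that 17908 of its entries reached 1 FPKM (fragment counts scaled to transcript length and library depth), against 14819 to 15179 in the other libraries. Erythroid markers were present in all 4 libraries with a summed level of 335 to 367 FPKM. All 8 stromal markers were lower with SF1-8, with summed levels of 13.0 and 7.22 FPKM in DMSO and 3.78 and 0.926 FPKM in SF1-8, and LUM was listed at 0 in both SF1-8 libraries. The part of these markers in the results was not tested. The p-values here weigh a group difference against the variation between these libraries, estimated with information shared across entries. The labels do not say that the replicates were separate cultures, so this variation may be technical. Levels are given as normalised FPKM, the deposited FPKM brought to the library scale of the test, in the order DMSO 1, DMSO 2, SF1-8 1, SF1-8 2. The U2AF1 entry, which does not separate mutant from wild-type transcripts, had 11.0, 11.7, 12.0 and 12.1 FPKM, and its log2 fold change of SF1-8 over DMSO was 0.085 (95% interval −0.097 to 0.27). U2AF2 had 24.6, 25.0, 24.1 and 23.5 FPKM and a log2 fold change of −0.058 (−0.23 to 0.11).

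Helicase transcripts were abundant in these cells. Of the 54 entries, 12 had a mean above 20 FPKM, 32 lay between 4 and 20 FPKM and 2 between 1 and 4 FPKM. The remaining 8 were below 1 FPKM. The levels summed over all members to 774 FPKM in each DMSO library and to 786 and 801 FPKM in the SF1-8 libraries, a mean 2.46% higher with SF1-8. This order rested on the library scale, since the sums of the deposited FPKM were 803, 761, 775 and 796 and overlapped. The median level over the members of a library was 7.85 and 8.07 normalised FPKM in DMSO and 7.37 and 7.27 in SF1-8. Different genes can hold this middle rank in different libraries, so it is not a fall of the typical member. The median log2 fold change of the members tested was 0.026. DDX21, a nucleolar helicase of ribosomal RNA synthesis and processing, had the highest level, with 120, 121, 124 and 129 FPKM. DHX9, a helicase of double-stranded RNA and RNA-DNA hybrids, followed with 94.5, 87.0, 95.7 and 99.6 FPKM. DDX1, a component of the tRNA ligase complex, had 51.7, 51.8, 54.6 and 57.0 FPKM. The libraries of these 3 did not overlap between the genes, and together they held 34.6% of the summed level. Next came 9 entries between 21.0 and 30.3 FPKM, in the order DHX15, DDX17, DDX39B, DDX5, DHX30, DDX39A, DHX33, DDX6 and DDX18. Each overlapped its neighbour in this order except DHX33 and DDX6. The entries of DDX39B, DDX5, DHX30 and DHX33 name further genes, among them C1QBP in the entry of DHX33. Their levels and ranks are those of the whole entry and may not be those of the helicase alone.

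**Figure D1:**
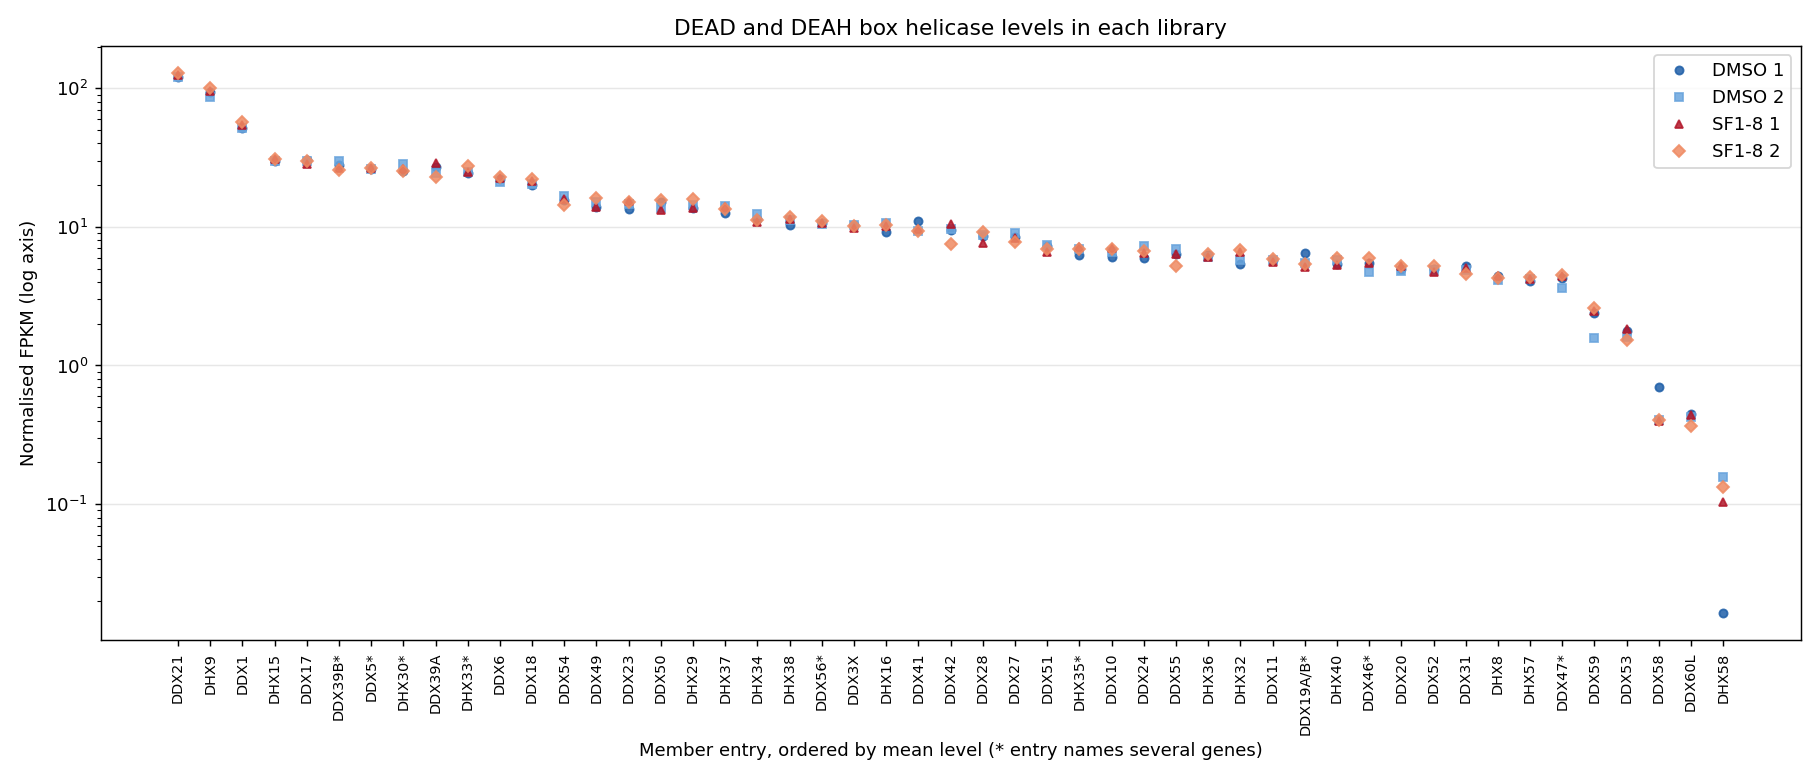
Normalised FPKM (log axis) of the tested members with a mean of at least 0.1 FPKM, ordered by mean level, with 1 point for each of the 4 libraries. The 4 points of a gene mostly lie close together down to about 1 FPKM, from DDX21 at 120 to 129 FPKM to DDX53 at 1.52 to 1.82 FPKM, and spread apart below that.

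SF1-8 left this family with small differences. Of the 54 entries, 50 passed the filter on low counts and were tested among 26167 entries by edgeR's quasi-likelihood test. None of the 50 had a Benjamini-Hochberg adjusted p under 0.05 in edgeR's quasi-likelihood test or in DESeq2, and the lowest in edgeR was 0.970. Over all entries 11 passed in edgeR, which is 0.0420%. At an unadjusted p under 0.05, 1 member passed in edgeR, DHX32, and 1 in DESeq2, DDX3Y, which was below the filter of edgeR. DDX3Y had a count of 25 in DMSO 1 and of 0 in every other library, so its call rests on 1 library. The edgeR share of 2.00% of members stood beside 4.33% of all entries tested. The median log2 fold change of the members was 0.026, against −0.011 over all entries and 0.018 over entries with a mean of at least 1 FPKM. Of the 50, 29 were higher and 21 lower with SF1-8, the difference at any size being higher for 48.4% of all entries. In limma on the log2 of deposited FPKM + 1, 24 members were higher and 25 lower, and 43.4% of all entries were higher.

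The differences were also narrowly bounded. In 39 of the 50 the fitted difference was under 10% either way, a share of 78.0% against 39.4% of all entries tested. In 45 of the 50 the 95% interval lay within 1.5-fold either way, against 30.7% of all entries. Levels matter for both shares, so they were also taken over entries with a mean of at least 1 FPKM. There 38 of 46 members differed by under 10%, or 82.6% against 58.0% of entries, and 45 of 46 were bounded within 1.5-fold, or 97.8% against 55.5%. DDX59 was the exception among the 46. Their median level was 9.91 FPKM, and no closer match on level was made. Among the 64 tested cofactors, partners and related helicases read below, 79.7% differed by under 10% and 84.4% were bounded within 1.5-fold. Small differences were thus not particular to this family. The median size of the log2 fold change was 0.086 over the 50 members. The median gap between single libraries was 0.10 for the DMSO pair and 0.065 for the SF1-8 pair. A fold change averages 2 libraries per group, so it cannot be compared directly with these gaps.

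**Figure D2:**
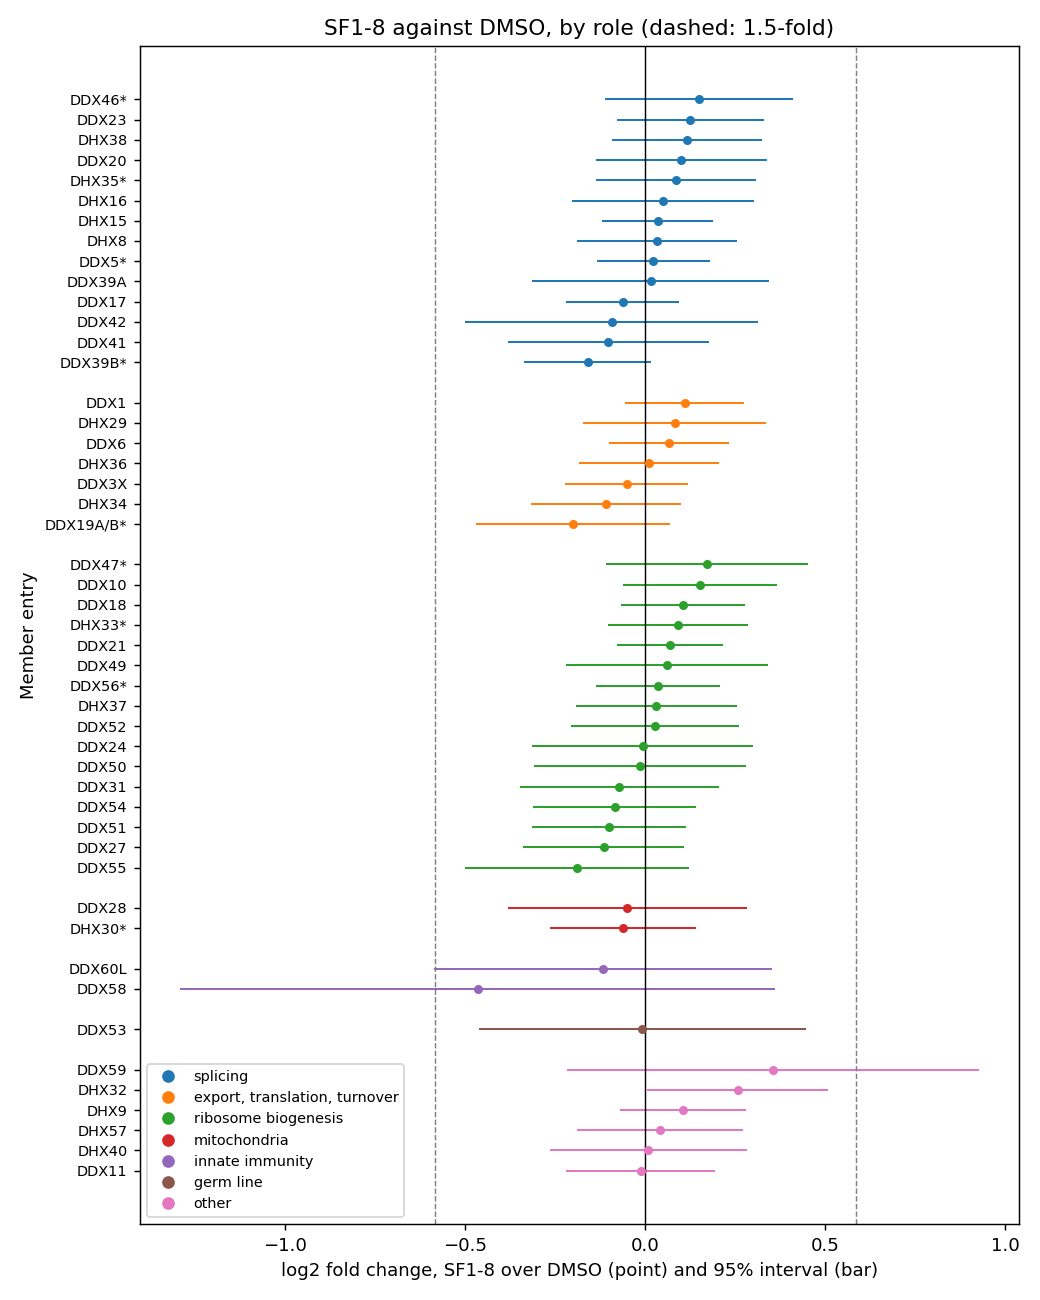
Log2 fold change of SF1-8 over DMSO (points) with its 95% interval (bars, edgeR, 2 libraries per group) for the members grouped by role, with DHX58 and DDX60 left out for standard errors above 0.5. Dashed lines mark 1.5-fold, an asterisk marks an entry that names several genes, and the interval of DHX32 alone lies off 0.

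Whether the libraries of a group overlapped was read for each member. Both SF1-8 libraries were above both DMSO libraries in 16 of 50 members, or 32.0% beside 17.5% of all entries tested and 21.0% of those with a mean of at least 1 FPKM. Both were below in 8 of 50, or 16.0% beside 18.0% and 14.8%. The remaining 26 overlapped. Read on the deposited FPKM, 8 of 50 lay above and 9 below. All of these had a mean of at least 1 FPKM, where they were 17.4% and 19.6% of 46 beside 15.5% and 17.7% of entries, so the larger share above was not seen on that scale. DDX5, DDX6, DDX21, DDX47, DDX56, DDX59, DHX9, DHX15 and DHX33 lay clear above the controls on the normalised scale only, and DDX17 and DDX58 clear below on that scale only. On the deposited scale only, DHX35 lay clear above and DDX54, DDX55 and DHX30 clear below. By name class, 14 were higher and 2 lower among the 16 DHX entries tested (median log2 fold change 0.045). Among the 34 DDX entries 15 were higher and 19 lower (median −0.010), and 48.4% of all entries were higher. These directions come from the main fit and were not counted by name class on the deposited FPKM. The difference between these medians was not tested.

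Splicing helicases numbered 14, all tested, with 10 higher, 4 lower and none past an unadjusted p of 0.05 in edgeR's quasi-likelihood test. Their median log2 fold change was 0.035. All 14 intervals lay within 1.5-fold, beside 55.5% of entries with a mean of at least 1 FPKM. The SF1-8 libraries were clear above the DMSO libraries in 5 (35.7%) and clear below in 2 (14.3%), beside 21.0% and 14.8% of those entries. On the deposited FPKM the counts were 4 (28.6%) and 1 (7.14%), beside 15.5% and 17.7%. In the order of the splicing cycle, DDX39B (UAP56), which helps U2AF2 in early assembly and later acts in mRNA export, had 28.1, 30.1, 26.4 and 25.6 FPKM. Both SF1-8 libraries were below both controls, and the log2 fold change was −0.16 ± 0.069 (SE; 95% interval −0.34 to 0.017; edgeR quasi-likelihood adjusted p = 0.970). Its entry (chr6:31530219-31548427) also covers ATP6V1G2 and a small nucleolar RNA. The log2 fold change was −0.21 without DMSO 1, where the unadjusted p passed 0.05, and −0.10 without DMSO 2, where it did not.

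DDX39A (URH49), the close relative of DDX39B with 80.0% identical coding bases, had 27.0, 24.3, 28.8 and 23.1 FPKM, and its libraries interleaved (log2 fold change 0.015, −0.32 to 0.35). DDX46, the human PRP5 that acts at the binding of U2 snRNP to the branch point, had 5.52, 4.74, 5.46 and 5.93 FPKM (0.15, −0.11 to 0.41). Its entry also covers C5orf24. The higher DMSO library lay between the SF1-8 libraries, so the groups overlapped. The value was 0.26 without DMSO 1, where the unadjusted p passed 0.05, and 0.050 without DMSO 2. DDX42, a helicase found with the SF3B complex of U2 snRNP, had 9.55, 9.66, 10.4 and 7.56 FPKM (−0.093, −0.50 to 0.32). The SF1-8 libraries lay on opposite sides of the controls, and the log2 fold change was 0.13 without SF1-8 2 and −0.34 without SF1-8 1.

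DDX23, the human PRP28 that lets U6 snRNA replace U1 at the 5' splice site, had 13.4, 14.5, 15.4 and 15.1 FPKM. Both SF1-8 libraries were above both controls (log2 fold change 0.13 ± 0.080 SE, 95% interval −0.078 to 0.33). DHX16, the human PRP2 that activates the spliceosome for the first step, had 9.15, 10.6, 10.1 and 10.3 FPKM and overlapped (0.049, −0.20 to 0.30). DHX38, the human PRP16 that prepares the second step, had 10.3, 11.1, 11.5 and 11.8 FPKM, with the SF1-8 libraries above the controls (0.12, −0.092 to 0.33). Without DMSO 1 the values of DDX23 and DHX38 were 0.069 and 0.061, and without DMSO 2 they were 0.19 and 0.18.

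DHX8, the human PRP22 that releases spliced mRNA, had 4.40, 4.12, 4.44 and 4.28 FPKM and overlapped (log2 fold change 0.034, −0.19 to 0.26). DHX15, the human PRP43 that takes the spliceosome apart, had 30.0, 29.9, 30.7 and 30.6 FPKM. Both DHX15 values with SF1-8 were above the controls by less than 1 FPKM, with a log2 fold change of 0.035 (−0.12 to 0.19). DHX35, a component of the catalytic spliceosome, had 6.27, 6.97, 7.10 and 6.97 FPKM (0.087, −0.14 to 0.31), in an entry that also covers FAM83D. DMSO 1 was the low library, and the value was 0.012 without it.

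DDX41, a spliceosome helicase mutated in inherited forms of myeloid neoplasia, had 10.9, 9.33, 9.59 and 9.28 FPKM. DMSO 1 alone was high and the other 3 libraries lay together (log2 fold change −0.10, −0.38 to 0.18). The paralogs DDX5 and DDX17, which couple transcription to splicing, share 70.5% of aligned coding bases and were at similar levels. DDX5 had 26.0, 26.3, 26.4 and 26.7 FPKM (0.023, −0.13 to 0.18) and DDX17 had 30.5, 30.1, 28.2 and 29.7 FPKM (−0.062, −0.22 to 0.096). Their SF1-8 libraries lay on opposite sides of the controls, by less than 10% in both. DDX20 (Gemin3), the helicase of the SMN complex that assembles snRNPs, had 4.94, 4.78, 5.21 and 5.21 FPKM, with both SF1-8 libraries above the controls (0.10, −0.14 to 0.34).

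**Figure D3:**
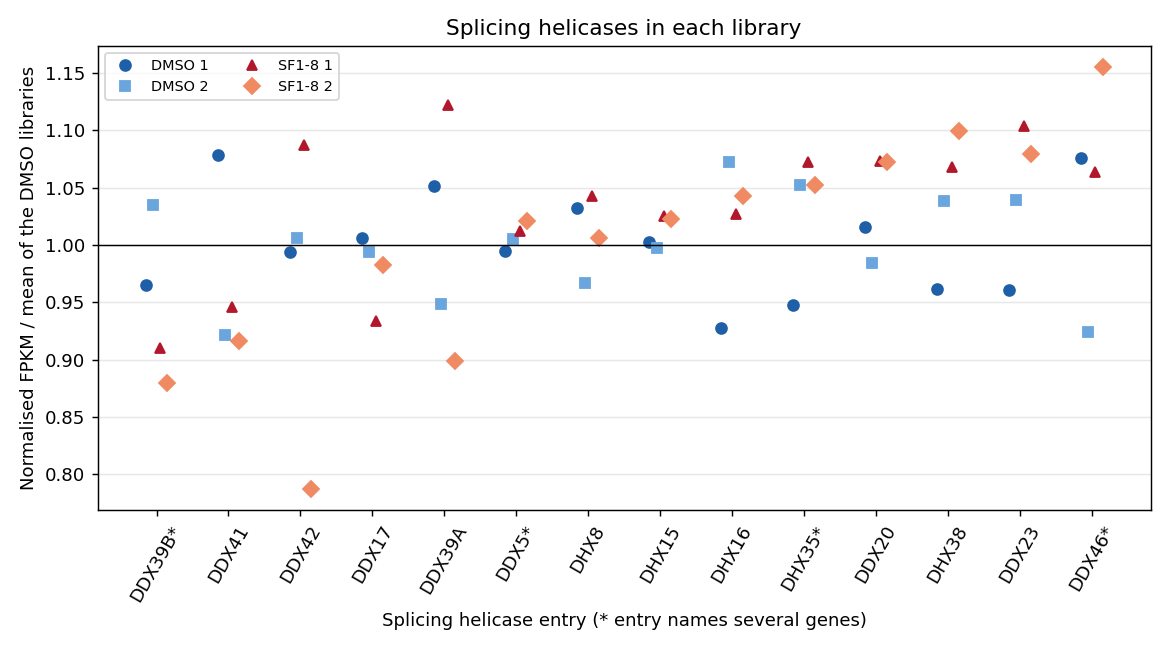
Normalised FPKM of each splicing helicase in each library, divided by the mean of the DMSO libraries of that gene, ordered by log2 fold change. DDX39B comes first with both SF1-8 points below the DMSO points and DDX46 last, and the lowest point is DDX42 in SF1-8 2, at 7.56 FPKM against 9.55 and 9.66 FPKM with DMSO.

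Helicases of export, translation and turnover had 7 entries tested, 4 higher and 3 lower, with a median log2 fold change of 0.010 and none past an unadjusted p of 0.05 in edgeR's quasi-likelihood test. DDX1 had the values given above and a log2 fold change of 0.11 (−0.055 to 0.27). DDX6, which represses translation and feeds mRNA to decay in P-bodies, had 22.3, 21.1, 22.4 and 23.0 FPKM (0.067, −0.10 to 0.23). DHX29, which helps the small ribosomal subunit scan structured leaders, had 13.6, 14.3, 13.8 and 15.8 FPKM and overlapped (0.082, −0.17 to 0.34). The entry that DDX19A and DDX19B share, for helicases that release mRNA at the nuclear pore, had 6.50, 5.52, 5.11 and 5.35 FPKM. Both SF1-8 libraries were lower, with DMSO 1 the highest (log2 fold change −0.20, −0.47 to 0.070), and the value was −0.077 without DMSO 1. The paralogs have 94.6% identical aligned coding bases, and this entry does not separate them. The other 3 tested, DDX3X, DHX34 and DHX36, lay between 6.18 and 11.5 FPKM on average. DDX3Y did not pass the filter, with 0.0690 FPKM in DMSO 1 and 0 in every other library.

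Ribosome biogenesis helicases numbered 16, all tested, with 9 higher, 7 lower and a median log2 fold change of 0.030. None passed an unadjusted p of 0.05 in edgeR's quasi-likelihood test. All 16 intervals lay within 1.5-fold, beside 55.5% of entries with a mean of at least 1 FPKM. The SF1-8 libraries were clear above the controls in 6 (37.5%) and clear below in 2 (12.5%), beside 21.0% and 14.8% of those entries. On the deposited FPKM the counts were 2 (12.5%) and 4 (25%), beside 15.5% and 17.7%. DDX21 was higher in both SF1-8 libraries by a fitted 4.96% (log2 fold change 0.070, −0.077 to 0.22). DHX33, a nucleolar helicase of ribosomal RNA transcription, had 24.6, 24.7, 24.9 and 27.6 FPKM (0.091, −0.10 to 0.29), in an entry that also covers C1QBP. SF1-8 2 was the high library, and the value was 0.018 without it. DDX18 had 20.1, 20.5, 21.3 and 22.3 FPKM, with both SF1-8 libraries above both controls (0.11, −0.066 to 0.28). DDX50, the paralog of DDX21, lies 9323 bp from it on chromosome 10 and has 70.9% identical aligned coding bases. Its mean of 14.4 FPKM was well below that of DDX21, and its libraries overlapped between groups (−0.015, −0.31 to 0.28). The other 12 had means from 4.20 to 15.6 FPKM and log2 fold changes from −0.19 for DDX55 to 0.17 for DDX47. The entry of DDX47 also covers APOLD1.

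The mitochondrial members overlapped between groups on the normalised scale, while DHX30 lay clear below the controls on the deposited FPKM. DHX30, needed for assembly of the mitochondrial ribosome, had 25.4, 28.3, 26.0 and 25.4 FPKM (log2 fold change −0.061, −0.26 to 0.14). DDX28, which acts in the same organelle, had 8.54, 8.81, 7.65 and 9.11 FPKM (−0.049, −0.38 to 0.28).

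Sensors and interferon-induced helicases had means below 1 FPKM, with DHX58 and DDX60 near the floor of detection. Their fold changes were less narrowly bounded than those of most members. DDX60L was the best measured of them, with an SE of 0.18. DDX58 (RIG-I), which senses viral RNA with a free 5' triphosphate, had 0.702, 0.407, 0.397 and 0.403 FPKM. Only DMSO 1 was high, and the log2 fold change of −0.47 (−1.29 to 0.36) was −0.026 without it. DHX58 (LGP2), a relative of RIG-I, had 0.0164, 0.158, 0.103 and 0.133 FPKM (0.42, −2.09 to 2.92), and the low DMSO 1 value set its sign. DDX60L had 0.444, 0.428, 0.441 and 0.363 FPKM (−0.12, −0.59 to 0.35). DDX60 was listed at 0 in DMSO 2 and SF1-8 2 and had 0.0278 and 0.0200 FPKM in DMSO 1 and SF1-8 1. None of the 4 intervals lay within 1.5-fold.

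Of the 4 helicases of the germ line, DDX4 (VASA), DDX25 and DDX43 were listed at 0 in every library. DDX53, a cancer-testis gene on chromosome X, was transcribed, with 1.77, 1.59, 1.82 and 1.52 FPKM, and its groups overlapped (log2 fold change −0.0078, −0.46 to 0.45).

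The remaining 6 members include DHX32, whose helicase function is not well known and the only member past an unadjusted p of 0.05 in edgeR's quasi-likelihood test. It had 5.43, 5.74, 6.53 and 6.83 FPKM, a mean of 5.59 ± 0.21 (SD, n = 2) in the controls and of 6.68 ± 0.21 (SD, n = 2) in the treated libraries. Both SF1-8 libraries were above both controls, by a fitted 19.5% (log2 fold change 0.26 ± 0.099 SE, 0.0051 to 0.51; edgeR quasi-likelihood adjusted p = 0.970). The unadjusted p did not pass 0.05 in DESeq2. It also did not pass without DMSO 1, DMSO 2, SF1-8 1 or SF1-8 2, where the log2 fold change was 0.22, 0.30, 0.29 and 0.23. DHX32 lies at chr10:125836337-125896436 on the minus strand.

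DDX59 had 2.38, 1.58, 2.48 and 2.60 FPKM, the SF1-8 libraries being above both controls (log2 fold change 0.35, −0.22 to 0.93). Here DMSO 2 alone was low, and the value was 0.68 without DMSO 1 and 0.094 without DMSO 2. DHX9 was higher in both SF1-8 libraries by a fitted 7.62% (0.11, −0.070 to 0.28). DDX11, a DNA helicase of sister chromatid cohesion, had 5.79, 5.72, 5.60 and 5.82 FPKM (−0.012, −0.22 to 0.19), and its reads may be shared with the near-identical pseudogene DDX12P, whose own entry had 3.80 to 4.71 FPKM. DHX40 and DHX57 were near 5.59 and 4.21 FPKM on average and overlapped.

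Cofactors and partners of these helicases, and related helicases outside the name rule, were read from the same fit. The list held 67 symbols in 66 entries, of which 64 were tested, with 37 higher, 27 lower and a median log2 fold change of 0.014. At an unadjusted p under 0.05, 1 passed, beside 4.33% of all entries, and none passed after Benjamini-Hochberg adjustment in edgeR's quasi-likelihood test or in DESeq2, where 3 had an unadjusted p under 0.05. Proteins with a G-patch, the domain that activates DHX15 and its relatives, were 11 higher and 11 lower of 22 tested. Direct partners of DEAD box proteins were 12 higher and 12 lower of 24, and related helicases 14 higher and 4 lower of 18.

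GEMIN4, which binds DDX20 in the SMN complex, was the 1 that passed. It had 7.00, 7.06, 5.25 and 4.60 FPKM, a mean of 7.03 ± 0.038 (SD, n = 2) in the controls and of 4.93 ± 0.46 (SD, n = 2) in the treated libraries. The 2 groups were far apart for the spread within them, and the log2 fold change was −0.51 ± 0.10 SE (−0.77 to −0.25; edgeR quasi-likelihood adjusted p = 0.740), a fold of 0.701. GEMIN4 lies at chr17:742970-752776. DDX20 itself had a log2 fold change of 0.10 (−0.14 to 0.34). SMN1, the scaffold of the complex, had 8.62, 10.0, 11.2 and 10.5 FPKM (0.21, −0.081 to 0.51). Both of these intervals include 0.

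The eIF4A proteins are the founding DEAD box helicases and carry other symbols. EIF4A1, which unwinds mRNA leaders for translation, had 29.9, 26.2, 37.6 and 31.2 FPKM in an entry that also covers SENP3 and CD68. Both SF1-8 libraries were above both controls (log2 fold change 0.30, 95% interval −0.0037 to 0.60). The value ran from 0.16 without SF1-8 1 to 0.43 without SF1-8 2, and the unadjusted p passed 0.05 in 6 of the 12 alternatives. EIF4A2 had 21.8, 21.3, 21.0 and 20.9 FPKM (−0.039) and EIF4A3, the core of the exon junction complex, had 15.8, 16.6, 16.2 and 15.1 FPKM (−0.051).

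**Figure D4:**
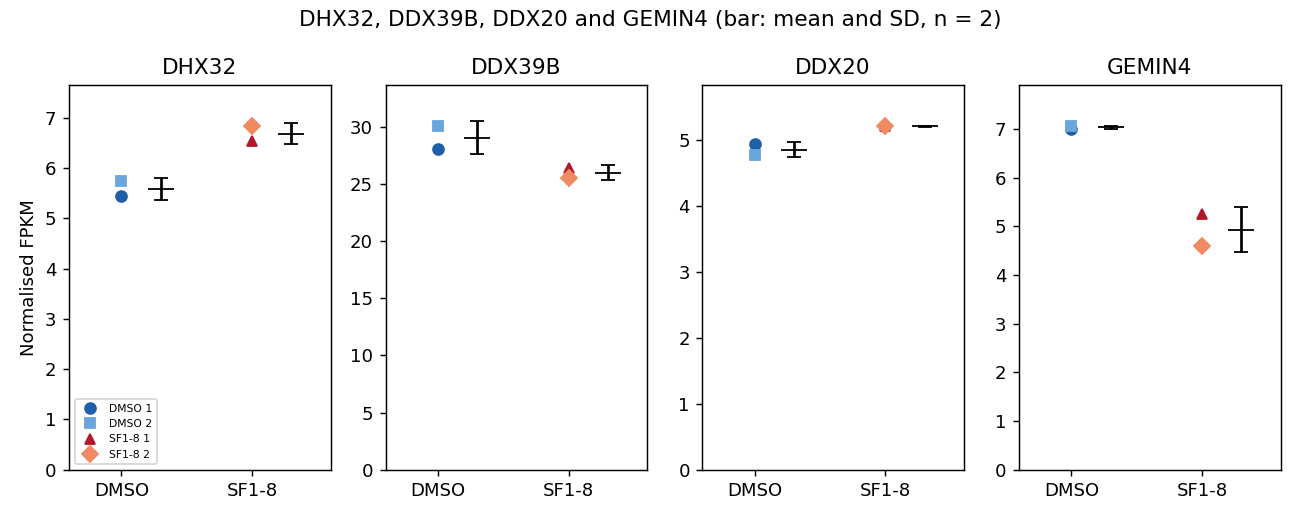
Normalised FPKM (axes start at 0) of DHX32, DDX39B, DDX20 and GEMIN4 in each library, with the mean and SD of the 2 libraries of a group beside the points. In each gene the groups do not overlap, and the gap is widest for GEMIN4, at 7.00 and 7.06 against 5.25 and 4.60 FPKM.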

How the data were processed

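RNA-seq of 4 libraries was analysed, 2 per group by the sample labels. The authors deposited an FPKM and an estimated count per library and entry in 1 table. The deposited counts are integers, most often 4 where not 0, and were taken as estimates, so no counting error was computed. The deposited FPKM are normalised for length and depth, and 0.0001 stands in for 0. The submitters' processing notes name cutadapt, FastQC, Bowtie2, HISAT2 and StringTie on hg38. Columns of the authors' own comparisons were not used. Entries that name no gene (2095 of 64873, 0.372% of counts) were left out.

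Counts were tested by edgeR 4.0.16 (quasi-likelihood test, TMM, filterByExpr, R 4.3.3) with Benjamini-Hochberg adjustment over all 26167 entries tested. The 95% intervals come from this fit. Normalised FPKM is the deposited FPKM times 1 factor per library, 0.964, 1.02, 1.01 and 1.01. DESeq2 1.42.0 and limma 3.58.1 were alternatives. Scripts were tested on simulated data. Motif II and coding identity were read from GENCODE 29 with Biopython 1.88. An entry can hold several genes: 10 of the 55 symbols lie in such entries.

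Members and lists were chosen with earlier results of these data known. Named were all splicing helicases, the 3 highest members of each other list, the 3 largest rises and falls, any member or cofactor at an unadjusted p under 0.05, the eIF4A genes, U2AF1 and U2AF2. DDX50, DDX55, DDX47, SMN1 and EIF4B were named after their values were seen. Within replicate numbers the deviations of the groups did not correlate (r = −0.018 across 15830 entries), so the numbers were taken as names only. No libraries held identical values.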

Additional observations from a re-analysis of the deposited data

Results flagged for a closer look

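A second entry that carries the symbol DHX34 (chr19:47356684-47357493) lies on the minus strand inside the plus-strand DHX34 gene and holds no GENCODE 29 exon. It entered no comparison above and was picked out because both SF1-8 libraries were above both controls. Its levels were 2.23 and 1.97 FPKM with DMSO and 2.75 and 2.52 FPKM with SF1-8. The log2 fold change was 0.33 (edgeR, adjusted p = 0.970), and 17.5% of all entries tested were likewise higher without overlap.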

How the results depend on the processing

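No member passed an adjusted p of 0.05 in any of the 12 alternatives, and the lowest value was 0.620, without DMSO 2. The median log2 fold change of the members stayed between −0.00086 and 0.053 over these alternatives. Members at an unadjusted p under 0.05 were 1 in the main test and with DESeq2, 0 with no filter or with the replicate block, and 2 (DDX39B and DHX32) with counts divided by 4 and in each of the 3 limma settings. Leaving out 1 library gave 0 to 4 members. Over all entries the count at an adjusted p under 0.05 was 11 in the main test, 143 with DESeq2, 31 with no filter, 0 with the replicate block and in the 3 limma settings, and 0 to 30 with 1 library left out. Cofactors and related helicases at an unadjusted p under 0.05 were 3 with DESeq2 and with no filter, 2 with RLE factors and with the replicate block, and 2 to 4 with 1 library left out. GEMIN4 kept an unadjusted p under 0.05 in all 12, with a log2 fold change from −0.61 to −0.41 and an adjusted p of 0.0889 at the lowest, in DESeq2. Members whose SF1-8 libraries lay clear above the controls were 8 on deposited FPKM, a scale chosen after seeing the data. The cause of these shifts was not tested.

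Signs turned in 27 values of the 38 named genes that were refitted. Without the filter DDX53 was 0.00026. DDX39A and DDX5 were −0.018 and −0.0038 in limma on log2(FPKM + 1), and −0.019 and −0.0040 on log2(FPKM + 0.1). After quantile normalization DDX21 was −0.011, DDX39A −0.038, DDX5 −0.024, DHX15 −0.015, DDX53 0.041 and DDX60L 0.023. With 1 library left out, values ranged from −0.21 to 0.015 for DDX41, −0.14 to 0.12 for DDX53, −0.052 to 0.16 for DHX16, −0.41 to 2.75 for DHX58, −0.15 to 0.17 for DDX39A, −0.14 to 0.025 for DHX30 and −0.0061 to 0.081 for DHX8. They ranged from −0.036 to 0.019 for DDX11, −0.18 to 0.074 for DDX28, −0.34 to 0.13 for DDX42, −1.43 to 0.57 for DDX60, −0.26 to 0.023 for DDX60L, −0.018 to 0.18 for DHX29 and −0.10 to 0.0061 for EIF4A3. A lone library is assumed to vary like the other group. With 2 libraries a group and estimated counts, small differences of single helicases could not be resolved, and splice isoforms are not seen at gene level.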

Other observations

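A second DDX10 entry (chr11:108731098-108731513) lies on the minus strand inside the plus-strand DDX10 gene and holds no GENCODE 29 exon. Its counts were 38 and 41 with DMSO and 12 and 2 with SF1-8 and both SF1-8 libraries were below both controls. The log2 fold change was −2.73 ± 0.92 SE (edgeR quasi-likelihood, adjusted p = 0.970), on low counts. It was the largest in size among the secondary entries read, and 18.0% of all entries tested were likewise lower without overlap. DDX10 itself, a nucleolar helicase, had 6.04, 6.54, 7.03 and 6.95 FPKM, so the entry and its host gene lay on opposite sides of their controls.

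EIF4B, the cofactor that speeds up eIF4A, split the libraries but not the groups. It had 41.4, 82.8, 85.7 and 42.4 FPKM, with DMSO 1 and SF1-8 2 low and DMSO 2 and SF1-8 1 high. The log2 fold change was 0.045 with an interval of −1.08 to 1.17.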
